A study of Homo sapiens with 2 samples.

Results

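The BCL2 family holds the proteins that decide whether a cell's mitochondria stay sealed or release the factors that start apoptosis. Its 10 members described here were taken by gene symbol, with no threshold on their levels, and are 10 of the 60612 genes listed in each table. They fall into 4 anti-apoptotic members (*BCL2*, *BCL2L1*, *BCL2L2* and *MCL1*), 2 effectors (*BAX* and *BAK1*) and 4 BH3-only members (*BID*, *BAD*, *BBC3* and *PMAIP1*). RNA was sequenced from L3.6, an established human pancreatic ductal adenocarcinoma (PDAC) cell line, in 1 library of cells carrying an shRNA against *ESE1* (shESE1) and 1 library of control cells (shCtrl). The sample label describes the control as untreated, whereas the paper's methods describe a scrambled, non-targeting shRNA, so both cultures would carry a lentiviral pLKO vector and have been selected in puromycin as pools of resistant clones. Which of the *ESE1* shRNAs the sequenced cells carried is not given in the sources used here.

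In healthy and cancerous epithelium alike, the anti-apoptotic proteins bind and restrain the effectors at the outer mitochondrial membrane. BH3-only proteins carry a short helix, the BH3 domain, with which they occupy the anti-apoptotic proteins or activate the effectors directly. Free effectors form pores, cytochrome c leaves the mitochondria, and caspases are activated. Many of these proteins are also controlled after translation, so RNA levels describe only the supply of transcript.

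The FPKM values (fragments per kilobase of gene, scaled to library depth) allow levels of different genes to be compared per length. Total counts were 60786475 in shESE1 and 56853971 in shCtrl. Mitochondrially encoded transcripts made up 3.79% of counts in shESE1 and 12.4% in shCtrl, which bears on the scaling of all other genes. What part it has in the differences described here was checked only by rescaling. *ELF3*, which encodes ESE1, was at 10.7 FPKM in shESE1 and 20.4 FPKM in shCtrl (log2 change −0.88 with a pseudocount of 1 FPKM), the direction the labels call for. All 7 epithelial markers checked were above 1 FPKM in both libraries, summing to 1823 FPKM in shESE1 and 1504 FPKM in shCtrl. Of these, 4 were higher in shESE1 and 3 lower. The lower ones were *CDH1* (E-cadherin, 6.95 FPKM in shESE1 and 16.3 FPKM in shCtrl), *MUC1* (2.48 and 5.41 FPKM) and *EPCAM* (110 and 117 FPKM). Of 10 markers of other cell types, 7 had no counts in shESE1 and 6 had none in shCtrl, among them *PTPRC*, *COL1A2*, *INS* and *PRSS1* in both. The others were *CD68* at 7.94 FPKM in shESE1 and 3.70 FPKM in shCtrl, *COL1A1* at 2.25 and 4.53 FPKM in the same order, *PECAM1* with 91 counts in shESE1 and 371 in shCtrl, and *VWF* with 0 and 8 counts. The part of other cell types in the results was not tested. Since each condition has a single library, the differences have no replicate check and no p-value, and the 95% intervals below cover counting error only. As in any bulk sample, fewer cells with a transcript and less transcript per cell cannot be told apart.

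Between shESE1 and shCtrl cells, only the 2 effectors differed in a single direction, whereas the 4 anti-apoptotic and the 4 BH3-only members were each divided. A class of 2 genes shares a direction more easily than a class of 4. Of all 12520 genes with at least 1 FPKM in either library, 6451 were higher in shESE1. Among the anti-apoptotic members, *BCL2L2* was 17.1-fold lower and *MCL1* 1.48-fold lower in shESE1, whereas *BCL2L1* was 1.36-fold higher. Both effectors were higher, *BAK1* by 1.57-fold and *BAX* by 1.56-fold. The BH3-only members were divided, with *BAD* 2.00-fold and *BID* 1.42-fold higher in shESE1, and *BBC3* 2.52-fold and *PMAIP1* 1.34-fold lower. These folds are ratios of FPKM without a pseudocount, each from 1 library per condition. The lower *BCL2L2* count stood beside a higher count of similar size at the adjoining gene *PABPN1*.

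For counts of changed genes, 1 was added to each FPKM before the log2 ratio of shESE1 over shCtrl was taken. A gene entered if either library reached 1 FPKM, which 12520 genes did, and was counted from a 2-fold difference upwards. Of the 10 members, 9 passed this filter and *BCL2* did not. Of these 9, 1 was at least 2-fold lower in shESE1 (*BCL2L2*), which is 11.1% beside 3.26% of all 12520 genes, and 0 were at least 2-fold higher, beside 3.14% of all genes. On this scale 4 of the 9 members lay below 0 and 5 above, beside 6069 below and 6451 above of all 12520 genes. The median of the 9 members was 0.44, beside 0.02 over all genes. *BAD*, at 0.97, lay just short of 2-fold. All 9 members kept their direction under the 12 alternatives run for most of them and the 11 run for *BBC3* and *PMAIP1*. *BCL2L2* came to −0.065 in 1 of these, its sum with the genes of its locus. A pseudocount or a filter cannot turn a direction, and sums with overlapping genes leave members without such genes unchanged. A direction could therefore have been turned only by the alternatives in scaling and, for members with overlapping genes, by those sums.

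**Figure D1:**
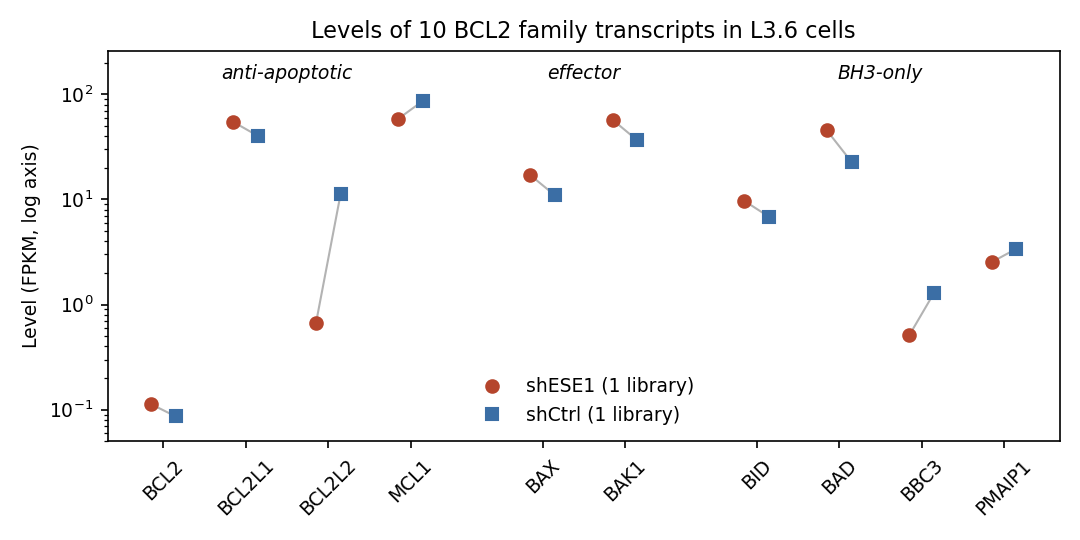
Level of each of the 10 BCL2 family transcripts in FPKM on a log axis, with circles for the shESE1 library and squares for the shCtrl library, 1 library each and a grey line joining the pair. *MCL1*, *BAK1*, *BCL2L1* and *BAD* are the most abundant members in both libraries, and *BCL2L2* has the longest line, with 0.663 FPKM in shESE1 and 11.3 FPKM in shCtrl.

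*MCL1* encodes a short-lived protein that holds BAK1 and some of the BH3-only proteins in check. The gene is on the minus strand of chromosome 1 (150574551 to 150579738, GRCh38, the build of all positions given). Its level was 58.6 FPKM in shESE1, from 18795 counts, and 86.9 FPKM in shCtrl, from 25577 counts. The log2 ratio without a pseudocount was −0.57 (95% interval −0.60 to −0.54). *MCL1* had the highest value of the 10 members in both libraries, although in shESE1 its counting interval overlapped that of *BAK1*.

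*BCL2L1* encodes BCL-XL, the anti-apoptotic protein that many carcinoma cells carry beside MCL1, and a shorter pro-apoptotic product of alternative splicing that gene-level counts do not separate. The gene is on the minus strand of chromosome 20 (31664452 to 31723989). It was at 54.6 FPKM in shESE1, from 13268 counts, and at 40.1 FPKM in shCtrl, from 8947 counts (log2 ratio 0.44, interval 0.41 to 0.48). The quotient of *MCL1* over *BCL2L1* was thus 1.07 in shESE1 and 2.17 in shCtrl, so that the 2 transcripts stood at nearly equal levels in the knockdown cells. An opposite-strand gene, *ABALON*, overlaps 43.0% of the exonic bases of *BCL2L1*, and had 533 counts in shESE1 and 428 in shCtrl. The log2 CPM ratio was 0.47 for *BCL2L1* alone and 0.46 summed over both.

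*BCL2*, after which the family is named, was almost silent in these cells. It had 99 counts in shESE1 and 69 in shCtrl, or 0.113 and 0.0863 FPKM, and the interval of its log2 ratio ran from −0.07 to 0.86. A difference in *BCL2* was therefore not detectable at this depth.

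*BCL2L2* encodes BCL-W, a further anti-apoptotic protein. The gene is on the plus strand of chromosome 14 (23298790 to 23311751). It was at 0.663 FPKM in shESE1, from 202 counts, and at 11.3 FPKM in shCtrl, from 3133 counts. The log2 ratio was −4.09 without a pseudocount (interval −4.31 to −3.89) and −2.89 with a pseudocount of 1. In the order of all genes past the filter, *BCL2L2* stood at percentile 3.77 in shESE1 and percentile 74.3 in shCtrl.

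Downstream of *BCL2L2* on the same strand lies *PABPN1* (chromosome 14, 23321289 to 23326185), which encodes a nuclear poly(A)-binding protein. A readthrough gene, *BCL2L2-PABPN1*, joins exons of both, and its exons overlap 813 exonic bases of *BCL2L2*, which is 19.4% of them. By 100-base words of transcript sequence, 30.7% of the words of *BCL2L2* also occur in the readthrough gene. *BCL2L2-PABPN1* had 101 counts in shESE1 and 13 in shCtrl, a difference in the opposite direction to that of *BCL2L2*. *PABPN1* had 10937 counts in shESE1 and 7553 in shCtrl.

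In CPM, the counts scaled by each library's total, *BCL2L2* was at 3.32 CPM in shESE1 and 55.1 CPM in shCtrl, a difference of −51.8 CPM. *PABPN1* was at 180 CPM in shESE1 and 133 CPM in shCtrl, a difference of 47.1 CPM. Summed over *BCL2L2* and the readthrough gene, the counts were 303 in shESE1 and 3146 in shCtrl, a log2 CPM ratio of −3.47, so the readthrough gene alone held few of the counts. Summed over all 3 genes, the counts were 11240 in shESE1 and 10699 in shCtrl, and the log2 CPM ratio was −0.03 (interval −0.06 to 0.01). The sum over the 3 genes thus differed by less than its counting error, while its parts differed in opposite directions. Smaller overlaps, under 5% of the member's exonic bases, were found for *BCL2L2* with *PPP1R3E*, *BAK1* with *GGNBP1*, *BBC3* with *MIR3190* and *MIR3191*, and *MCL1* with *ADAMTSL4-AS1*. The annotated ranges of *BCL2L2* and *PABPN1* do not overlap. Whether reads of this locus were assigned differently in the 2 libraries was not tested, and a lower *BCL2L2* with a higher *PABPN1* cannot be told apart from it in these tables.

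**Figure D2:**
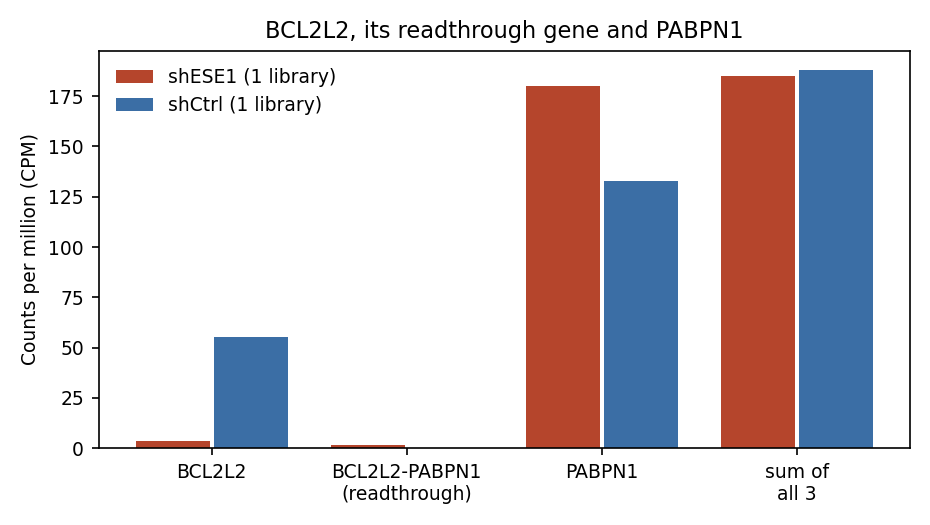
CPM of *BCL2L2*, the readthrough gene *BCL2L2-PABPN1*, *PABPN1* and their sum, with the shESE1 bar left of the shCtrl bar, 1 library each. *BCL2L2* is lower and *PABPN1* higher in shESE1, and the sums of 185 CPM in shESE1 and 188 CPM in shCtrl are nearly level.

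The effectors *BAX* and *BAK1* encode the proteins that form the pore in the outer mitochondrial membrane. *BAK1* (chromosome 6, 33572547 to 33580293, minus strand) was at 57.3 FPKM in shESE1 and 36.5 FPKM in shCtrl, from 9298 and 5433 counts (log2 ratio 0.65, interval 0.60 to 0.70). *BAX* (chromosome 19, 48954815 to 48961798, plus strand) was at 17.1 FPKM in shESE1 and 10.9 FPKM in shCtrl, from 3248 and 1910 counts (log2 ratio 0.64, interval 0.56 to 0.72). Both effectors were higher by nearly the same factor, and the quotient of *BAX* over *BAK1* was 0.298 in shESE1 and 0.300 in shCtrl. *BAK1* shares 3.68% of its sequence words with the pseudogene *BAK1P1*, which had 68 counts in shESE1 and 70 in shCtrl. The log2 CPM ratio was 0.68 for *BAK1* alone and 0.67 summed over both.

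*BAD* encodes a BH3-only protein that binds BCL-XL and BCL2 and is held inactive by phosphorylation downstream of growth factor receptors. The gene is on the minus strand of chromosome 11 (64269830 to 64284665). It was at 45.3 FPKM in shESE1, from 5684 counts, and at 22.7 FPKM in shCtrl, from 2612 counts. The log2 ratio was 1.00 (interval 0.93 to 1.07), the largest increase among the 10 members. Whether *BAD* counts as 2-fold higher depended on the scale, since it was 0.97 with a pseudocount of 1 FPKM, but 1.25 as TPM. *GPR137*, on the opposite strand, overlaps 23.7% of the exonic bases of *BAD*, and was also higher in shESE1, with 1503 counts there and 989 in shCtrl. The libraries keep strand, but whether counting used it is not stated, so reads from this overlap may be shared. The log2 CPM ratio was 1.03 for *BAD* alone and 0.90 summed over *BAD* and *GPR137*.

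*BID*, whose protein is cut by caspase-8 and so carries the signal of death receptors to the mitochondria, was higher by less. The gene is on the minus strand of chromosome 22 (17734138 to 17774495). Its level was 9.68 FPKM in shESE1 and 6.82 FPKM in shCtrl, from 3141 and 2032 counts (log2 ratio 0.50, interval 0.42 to 0.59). The quotient of *BID* over *BCL2L1* was 0.177 in shESE1 and 0.170 in shCtrl, so *BID* moved by close to the same factor as *BCL2L1*.

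*BBC3* and *PMAIP1* encode PUMA and NOXA, BH3-only proteins whose genes are known to be induced by cellular stress. *BBC3* (chromosome 19, 47220822 to 47232766, minus strand) was at 0.512 FPKM in shESE1 and 1.29 FPKM in shCtrl, from 120 and 278 counts. Its log2 ratio without a pseudocount was −1.34 (interval −1.66 to −1.02), beyond 2-fold over the whole interval, but a pseudocount of 1 FPKM brought it to −0.60 because the gene is so low. *PMAIP1* (chromosome 18, 59899996 to 59904305, plus strand) was at 2.54 FPKM in shESE1 and 3.40 FPKM in shCtrl, from 408 and 501 counts (log2 ratio −0.42, interval −0.61 to −0.23). NOXA binds chiefly MCL1, and the quotient of *PMAIP1* over *MCL1* was 0.0433 in shESE1 and 0.0391 in shCtrl, since both transcripts were lower.

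**Figure D3:**
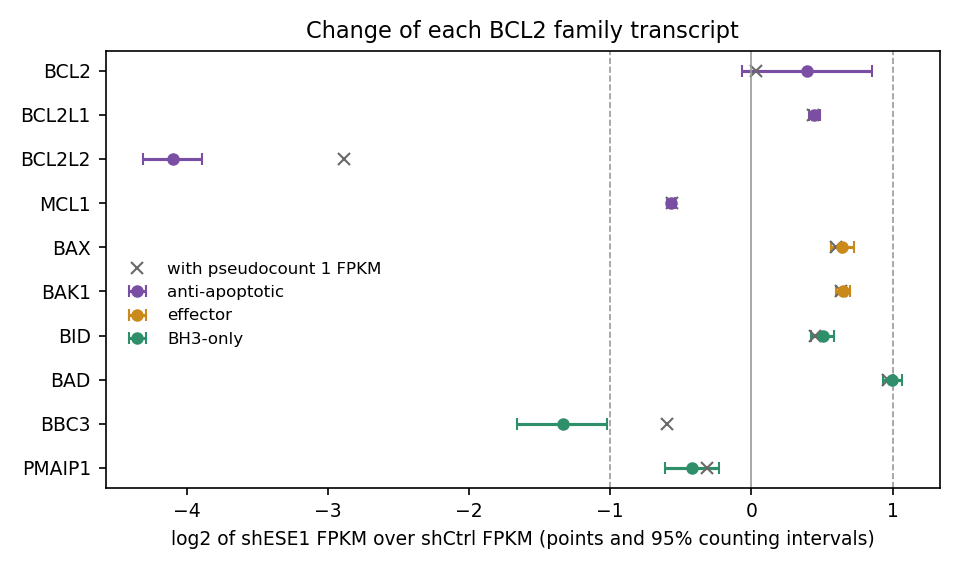
Log2 of the shESE1 over the shCtrl FPKM for each member, 1 library each, with points coloured by class, bars for the 95% counting interval and crosses for the value with a pseudocount of 1 FPKM. The dashed lines mark 2-fold. *BAX* and *BAK1* coincide, *BAD* sits on the 2-fold line, and *BBC3* and *BCL2L2* move towards 0 with the pseudocount.

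The order of the most abundant members differed between the libraries. In shESE1, *MCL1* (58.6 FPKM, exact Poisson interval 57.8 to 59.4) and *BAK1* (57.3 FPKM, 56.1 to 58.5) could not be separated by counting error, and *BCL2L1* (54.6 FPKM) and *BAD* (45.3 FPKM) followed. In shCtrl, *MCL1* at 86.9 FPKM stood far above *BCL2L1* at 40.1, *BAK1* at 36.5 and *BAD* at 22.7 FPKM. Below these came *BAX* and *BID* in shESE1, whereas in shCtrl *BCL2L2* (11.3 FPKM, 10.9 to 11.7) and *BAX* (10.9 FPKM, 10.5 to 11.5) had overlapping intervals ahead of *BID*. *PMAIP1* was above *BBC3* in both libraries, and *BCL2* was last in both.

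Summed by class, the anti-apoptotic members came to 114 FPKM in shESE1 and 138 FPKM in shCtrl (log2 ratio −0.28, interval −0.30 to −0.26, and −0.016 as TPM, which is FPKM rescaled to the same sum in both libraries). The effectors came to 74.4 FPKM in shESE1 and 47.4 FPKM in shCtrl (log2 ratio 0.65, interval 0.61 to 0.69), and the BH3-only members to 58.1 and 34.2 FPKM (log2 ratio 0.76, interval 0.71 to 0.81). The median log2 change with a pseudocount of 1 was −0.56 over the 3 anti-apoptotic members past the filter, 0.62 over the 2 effectors and 0.07 over the 4 BH3-only members. The anti-apoptotic median was −0.065 with *BCL2L2* summed over its locus, −0.15 as CPM and −0.11 as TMM-scaled CPM (scaled by a trimmed mean of gene ratios). Without *BCL2L2*, whose counts carry the doubt given above, the anti-apoptotic sum was 113 FPKM in shESE1 and 127 FPKM in shCtrl, a log2 ratio of −0.17.

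A few abundant members carried these sums. *MCL1* made up 51.4% of the anti-apoptotic sum in shESE1 and 62.8% in shCtrl, and *BCL2L1* 47.9% and 28.96%. *BAK1* made up 77.0% of the effector sum in shESE1 and 76.9% in shCtrl. *BAD* made up 78.1% of the BH3-only sum in shESE1 and 66.3% in shCtrl. The BH3-only median near 0 and the higher BH3-only sum thus describe the same 4 genes, 2 of them higher and 2 lower, with the higher ones also the more abundant.

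The quotients between classes, which do not depend on how the libraries are scaled, were higher in shESE1. Effector over anti-apoptotic transcripts stood at 0.653 in shESE1 and 0.343 in shCtrl, a ratio of 1.91 (log2 0.93, interval 0.88 to 0.98). BH3-only over anti-apoptotic transcripts stood at 0.510 in shESE1 and 0.247 in shCtrl, a ratio of 2.06 (log2 1.04, interval 0.99 to 1.10). Without *BCL2L2* these log2 ratios were 0.82 for the effectors and 0.93 for the BH3-only members. The most abundant member of each class decided much of this. Without *MCL1*, *BAK1* and *BAD*, the anti-apoptotic sum was 55.3 FPKM in shESE1 and 51.5 FPKM in shCtrl, so its direction turned. The log2 ratio of the quotients was then 0.54 for the effectors and 0.041 for the BH3-only members. Among single pairs, *BAK1* over *MCL1* stood at 0.978 in shESE1 and 0.420 in shCtrl, while *BAX* over *BCL2L1* stood at 0.313 and 0.273 in the same order.

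**Figure D4:**
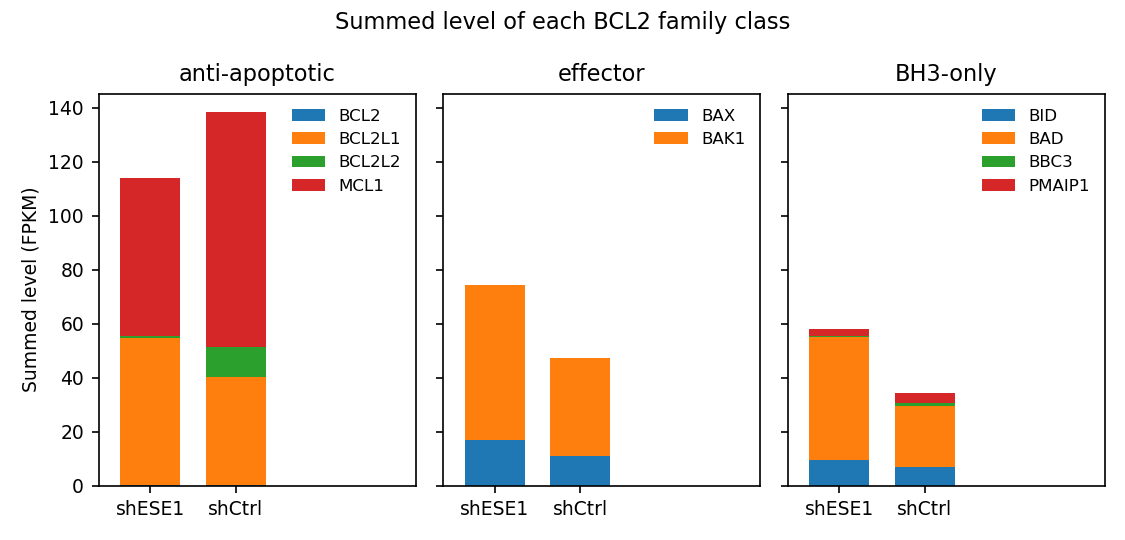
Summed FPKM of the anti-apoptotic, effector and BH3-only members, stacked by gene, with the shESE1 bar left of the shCtrl bar, 1 library each. The anti-apoptotic bar is 114 FPKM in shESE1 and 138 FPKM in shCtrl, whereas the effector and BH3-only bars are taller in shESE1.

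ESE1 is an ETS-domain transcription factor, and ETS proteins bind DNA around a GGAA core, so the starts of the member genes were read for this core. RefSeq promoter windows, 250 bases before to 50 after a transcription start on GRCh38.p14, were found for 8 of the 10 members, in 14 windows. The letters GGAA on either strand occur in 95.5% of all 35116 windows and in 13 of the 14. The longer letters CGGAAG, which include GGAA, occur on either strand in 19.5% of all windows and in 2 of the 14 windows of the members, those of *BCL2L1* and *BCL2*. The full ETS consensus CCGGAAGT, which includes both, occurs in 4.14% of all windows and in 1 window of the members, that of *BCL2L1*. For *BCL2L1*, as the carrier of the consensus, and for *BAD* and *BBC3*, as the members furthest higher and lower among those with a window, 1 window each is printed. The letters run 5′ to 3′ on the strand of the gene, with CGGAAG in capitals where it occurs. The printed windows lie at chr20:31723914-31724213, chr11:64284655-64284954 and chr19:47232618-47232917, all on the minus strand. The letters are a description, since no binding was measured.
BCL2L1: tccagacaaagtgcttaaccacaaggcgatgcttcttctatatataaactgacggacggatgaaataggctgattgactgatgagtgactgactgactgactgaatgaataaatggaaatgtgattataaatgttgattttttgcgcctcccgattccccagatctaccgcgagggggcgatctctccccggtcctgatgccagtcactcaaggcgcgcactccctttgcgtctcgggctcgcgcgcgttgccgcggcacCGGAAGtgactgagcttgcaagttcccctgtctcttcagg
BAD: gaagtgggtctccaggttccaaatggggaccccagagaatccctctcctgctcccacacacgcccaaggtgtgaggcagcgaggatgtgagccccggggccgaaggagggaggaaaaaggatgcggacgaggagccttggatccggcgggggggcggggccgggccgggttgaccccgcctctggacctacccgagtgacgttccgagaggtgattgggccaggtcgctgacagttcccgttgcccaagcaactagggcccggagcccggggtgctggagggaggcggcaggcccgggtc
BBC3: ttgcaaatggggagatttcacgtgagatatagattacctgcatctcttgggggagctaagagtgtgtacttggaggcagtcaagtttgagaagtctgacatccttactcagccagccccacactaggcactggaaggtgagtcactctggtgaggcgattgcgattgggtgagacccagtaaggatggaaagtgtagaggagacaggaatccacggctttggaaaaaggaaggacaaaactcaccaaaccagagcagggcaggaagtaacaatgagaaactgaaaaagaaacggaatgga
The printed *BCL2L1* window holds its CGGAAG in the 50 bases after the start, and the other *BCL2L1* window holds no CGGAAG. The windows of *BAD* and *BBC3* hold no CGGAAG.

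Around the family, 77 further genes of the apoptosis machinery in 7 lists were read, of which 63 passed the filter. Past 2-fold in shESE1, 4 of these 63 were lower and 5 were higher, or 6.35% and 7.94%, beside 3.26% and 3.14% of all genes, and their median log2 change was 0.00. The lists were chosen with results of these data known and are described by counts and medians only.

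Among 17 further genes of the BCL2 family or with homology to it, 10 passed the filter, with a median of −0.16. *BIK*, which encodes a BH3-only protein of the endoplasmic reticulum, passed 2-fold on the scale with a pseudocount, at 13.0 FPKM in shESE1 and 5.25 FPKM in shCtrl (log2 change 1.17). *HRK*, a further BH3-only gene, was at 0.668 FPKM in shESE1 and 1.65 FPKM in shCtrl. The pseudocount held it at −0.67, and without one its log2 ratio was −1.30 (interval −1.49 to −1.12). *BOK*, which encodes an effector-like protein, was at 8.50 FPKM in shESE1 and 6.90 FPKM in shCtrl. *BCL2L11*, which encodes the BH3-only protein BIM, was below 1 FPKM in both libraries, and *BCL2A1* and *BCL2L10* had no counts in either.

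Of 10 genes of the outer mitochondrial membrane, of mitochondrial release and of the apoptosome, 9 lay above 0, beside 6451 of all 12520 genes. Their median was 0.46, and 3 were at least 2-fold higher (30%, beside 3.14% of all genes). These 3, at 1.06 to 1.11, became 0 once mitochondrial genes were left out of the totals. That rescaling lowered all other genes together, and the median over all genes moved from 0.02 to −0.10. Of all 12842 genes past the filter under it, 293 were at least 2-fold higher. *CYCS*, which encodes cytochrome c, was at 108 FPKM in shESE1 and 49.5 FPKM in shCtrl (log2 change 1.11). The channel gene *VDAC3* (1.09) and the mitochondrial nuclease gene *ENDOG* (1.06) were also past 2-fold before that rescaling. *APAF1*, which encodes the scaffold that cytochrome c binds to form the apoptosome, was the member of this list below 0, at 1.51 FPKM in shESE1 and 2.14 FPKM in shCtrl.

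Of 7 caspases 0 passed 2-fold with a pseudocount of 1 FPKM, beside 3.26% of all genes lower and 3.14% higher. Below 0 lay 4 of the 7, beside 6069 of all 12520 genes, and the median of the caspases was 0.00. *CASP2*, at 3.68 FPKM in shESE1 and 1.36 FPKM in shCtrl, was held at 0.99 by the pseudocount, and its log2 ratio without one was 1.44 (interval 1.31 to 1.56). It was followed by the executioner caspase gene *CASP6* (0.68). The inhibitors of apoptosis, which block caspases or steer their ubiquitination, had 5 of 7 genes past the filter and a median of −0.63. *BIRC2*, which encodes cIAP1, was at 12.5 FPKM in shESE1 and 29.9 FPKM in shCtrl (−1.19), and *BIRC5*, which encodes the mitotic protein survivin, was the 1 above 0, at 15.6 FPKM in shESE1 and 8.74 FPKM in shCtrl (0.77).

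On the death receptor side, which feeds into the family through *BID*, 10 of 13 genes passed the filter with a median of 0.29. *TNFSF10*, which encodes the ligand TRAIL, was at 12.9 FPKM in shESE1 and 46.7 FPKM in shCtrl (−1.78). The adaptor genes *TRAF2* (0.77) and *FADD* (0.74) had the largest positive values, *FADD* with 84.0 FPKM in shESE1 and 49.9 FPKM in shCtrl. Of the 9 genes listed as regulators of MCL1 and BIM turnover, 7 passed the filter, with a median of −0.23. Past 2-fold were 0 of these 7, beside 3.26% of all genes lower and 3.14% higher. *DESI1* (0.83) and *USP9X*, which encodes a deubiquitinase that stabilises MCL1 (−0.80), had the largest values.

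Of 14 genes listed as inducers of BH3-only transcripts, 14 passed the filter, and the median was −0.35. Past 2-fold, 2 were lower and 1 higher, or 14.3% and 7.14%, beside 3.26% and 3.14% of all genes. Without a pseudocount, 3 were lower and 2 higher, beside 1062 lower and 686 higher of all 12520 genes on that scale. *TRIB3*, a pseudokinase gene of the amino acid and endoplasmic reticulum stress response that is itself a target of such factors, was at 7.60 FPKM in shESE1 and 35.3 FPKM in shCtrl (−2.08). *HIF1A*, which encodes the hypoxia factor, was at 24.7 FPKM in shESE1 and 59.6 FPKM in shCtrl (−1.24). *E2F1*, a factor of S-phase entry, was at 31.0 FPKM in shESE1 and 11.99 FPKM in shCtrl (1.30).

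**Figure D5:**
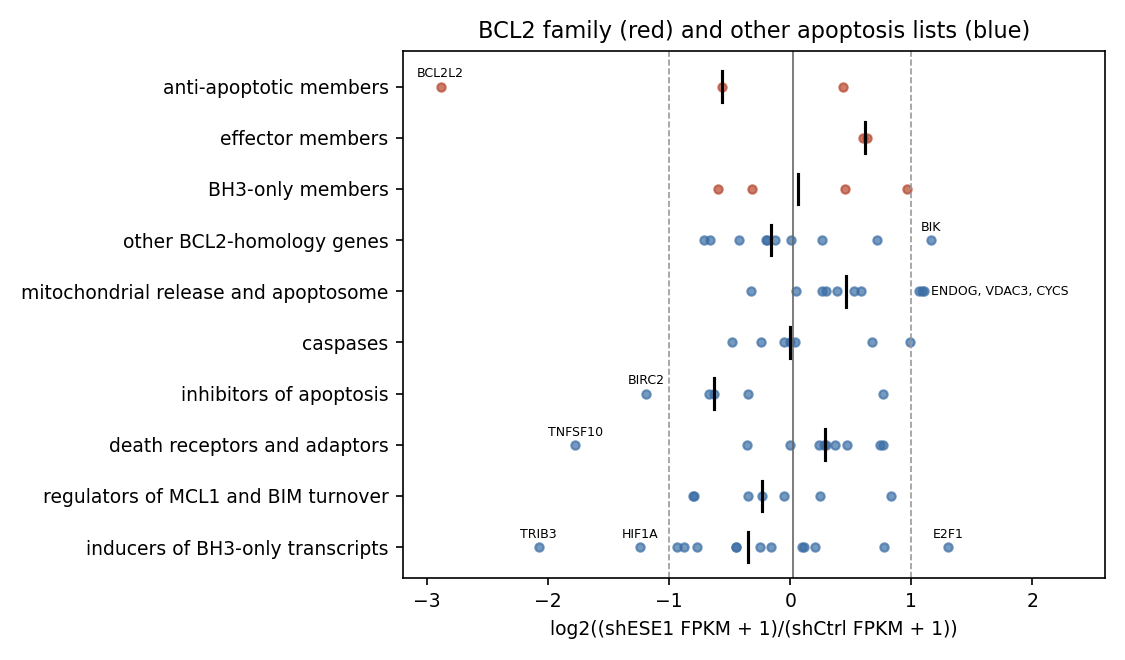
Log2((shESE1 FPKM + 1)/(shCtrl FPKM + 1)) of every gene past the filter of 1 FPKM, in red for the 3 classes of the BCL2 family and in blue for 7 lists of other apoptosis genes, with a black bar at each median. The solid line marks the median of all 12520 genes (0.02) and the dashed lines 2-fold. The release and apoptosome list has a median of 0.46 and the inhibitors of apoptosis one of −0.63.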

How the data were processed

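RNA-seq of poly(A) RNA with strand-marked (dUTP), paired-end libraries was compared between 1 shESE1 and 1 shCtrl library of L3.6 cells. Per gene, the authors deposited raw whole-number counts and an FPKM, which reads 0.0001 where a gene has no reads (taken as 0 here). Tools listed in the submitters' processing notes are StringTie, HISAT2 and fastp, with mm10 and GRCh38 as builds. Roles, versions and the counting tool are not stated there. Across 11935 genes past the filter with at least 50 counts in each library, FPKM and CPM ratios differed by a nearly constant log2 shift of −0.03, so both deposited columns carry the same change and no isoform information.

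Changes are log2 ratios with a pseudocount of 1 FPKM, over genes with 1 FPKM or more in either library. Intervals of ratios are exact binomial (Clopper-Pearson) at 95%, conditional on the counts of both libraries. Those of class sums use a normal approximation to counting error. No test was run, because neither condition was replicated. Overlaps and 100-base words every 10 bases came from GENCODE release 29, and promoter windows from RefSeq (GRCh38.p14). Alternatives were other pseudocounts, filters, folds and scalings, including TMM factors from edgeR 4.0.16. The calculation was tested on simulated data. The members, lists and the named-gene rule were chosen with earlier results of these data known. The rule named all members, genes that overlap them, every listed gene past 2-fold or else up to 2 with the largest change per list, and a few others (*BOK*, *BCL2L11*, *BCL2A1*, *BCL2L10*, *HRK*, *APAF1*, *BIRC5*, *TRAF2*, *FADD*) were named after their values were seen. Some listed genes are not reported here. Python 3.11.15, numpy 2.4.6, pandas 2.3.3, scipy 1.17.1, matplotlib 3.10.9 and R 4.3.3 were used.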

Additional observations from a re-analysis of the deposited data

How the results depend on the processing

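No paired analysis was possible because each condition has 1 library and no result comes from a test. Depth limits *BCL2* and, by the pseudocount, *BBC3*. Median log2 changes over all genes were 0.20 as TPM, −0.10 with mitochondrial genes out of the totals and 0.02 for the main measure, so member values under these alternatives move with that shift. All-gene counts at 2-fold were 873 lower and 1432 higher as TPM (16416 genes past the filter), 568 and 293 without mitochondrial genes, 1021 and 622 as CPM, 945 and 686 as TMM-scaled CPM, 958 and 644 with a pseudocount of 0.1, 110 and 142 with 5, 1062 and 686 with none, 1444 and 1526 at 1.5-fold, 114 and 87 at 3-fold, and 230 and 300 with a filter of 5 FPKM. The alternatives without a pseudocount and with *BCL2L2* summed over its locus or left out were chosen after seeing the data. The cause of the moves below was not tested beyond what each alternative changes by its construction.

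Of the members, the 1 lower became 2 with a pseudocount of 0.1, with none and at 1.5-fold (*BBC3* was the added member), and 0 when *BCL2L2* was summed with *BCL2L2-PABPN1* and *PABPN1*. Of the members, the 0 higher became 1 (*BAD*) as CPM, as TMM-scaled CPM and as TPM, and 3 at 1.5-fold. The anti-apoptotic median of −0.56 was −0.26 with no filter, −0.15 as CPM, −0.11 as TMM-scaled CPM, −0.30 as TPM, −0.69 without mitochondrial genes and −0.065 with the summed locus (*BCL2* enters with no filter and in CPM). The effector median of 0.62 was 0.53 with a pseudocount of 5, 0.71 as TMM-scaled CPM, 0.90 as TPM and 0.49 without mitochondrial genes. The BH3-only median of 0.07 was 0.71 with a filter of 5 FPKM, which leaves *BID* and *BAD*, and 0.30 as TPM. With the filter of 5 FPKM the median over all genes was 0.15. As TPM the class sums had log2 ratios of −0.016 (anti-apoptotic), 0.91 (effector) and 1.03 (BH3-only). Without the most abundant member of each class the anti-apoptotic sum was 0.10, the BH3-only sum 0.14, and the quotients over the anti-apoptotic sum 0.54 for effectors and 0.041 for BH3-only members. Without *BCL2L2* the anti-apoptotic sum was −0.17 and the quotients 0.82 and 0.93. The 4 lower and 5 higher of the further apoptosis genes were 3 higher with a pseudocount of 5, 8 higher as TMM-scaled CPM, and 2 lower and 13 higher as TPM. They were 2 higher without mitochondrial genes, 13 lower and 14 higher at 1.5-fold, 2 lower and 0 higher at 3-fold, and 7 lower with no pseudocount. Of the values under alternatives, 290 stayed within counting error of the main value (counts within 1.5 times) and 119 moved. Part of the 290 could not have moved, because a filter or a sum with other genes leaves many values unchanged by construction.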
